A study of Mus musculus with 6 samples.

Results

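The genes described here govern the entry of pyruvate into the citric acid cycle: the 4 pyruvate dehydrogenase kinases (Pdk1, Pdk2, Pdk3 and Pdk4), the catalytic E1 subunits of the pyruvate dehydrogenase complex (Pdha1 and Pdhb), the complex's phosphatases (Pdp1 and Pdp2) and the subunits of the mitochondrial pyruvate carrier (Mpc1 and Mpc2). They were taken by symbol from the deposited heart RNA-seq table, and all 10 were found among its 49585 genes. Hearts came from male mice labelled 8- or 9-week-old. PG libraries (PG1, PG2 and PG3; n = 3) came from mice kept on the International Space Station at lunar gravity, 0.167 g, produced by spinning their cages at 31 rpm on an arm of 15 cm. GC libraries (GC1, GC2 and GC3; n = 3) came from ground controls at 1 g, described as C57BL/6J mice, 6 per mission; the labels give the strain only for these. PG hearts therefore differ from GC hearts in spaceflight as well as in gravity, these cannot be told apart here, and a flight group at 1 g was not analysed here. Whether the libraries of a group are from different animals is not stated, so the p-values measure only the spread between these libraries.

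Pyruvate enters the mitochondrion through the carrier that Mpc1 and Mpc2 form together, and the pyruvate dehydrogenase complex then turns it into acetyl-CoA. The kinases phosphorylate the E1 alpha subunit, encoded by Pdha1, and switch the complex off, and the phosphatases remove the phosphate and switch it on. In heart, Pdk2 and Pdk4 are the kinases usually described as abundant, and Pdk4 is known as the one whose transcript follows fasting, fatty acid supply, glucocorticoids and insulin, through PPAR and FoxO factors.

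Totals ran from 7095862 to 8271553 counts in PG libraries and from 6461213 to 7209653 in GC libraries, with 16.3 to 18.3% of counts from mitochondrially encoded genes. Heart identity was seen in the cardiomyocyte markers. Their 8 genes summed to 45880 to 50515 counts per 1000000 of the scaled library total (CPM) in PG libraries and 55076 to 56382 CPM in GC libraries. Myh6 made up much of these sums, at a mean of 24907 CPM in PG hearts and 31826 CPM in GC hearts. The skeletal muscle myosins Myh1 and Myh4 were listed at 0 in all 6 libraries. The header of the deposited table sets the third GC column under PG, against that library's own title. It is treated here as a ground control, as titled. Under the header's grouping every called gene named here other than Arntl lost its call, with edgeR adjusted p from 0.20 for Apln to 0.86 for Hist1h1d. This leaves aside Pln and Acta2, for which alternatives are not given here.

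The promoters of Pdk4 and Pdk2 are shown because these 2 kinases exchange places as the most abundant one between the groups. Each window runs 5′ to 3′ on the gene's strand from 250 bases before the RefSeq start site to 50 after it (RefSeq, build GRCm38.p6), with capitals marking CG dinucleotides.
Pdk4, chr6:5496229-5496528, minus strand: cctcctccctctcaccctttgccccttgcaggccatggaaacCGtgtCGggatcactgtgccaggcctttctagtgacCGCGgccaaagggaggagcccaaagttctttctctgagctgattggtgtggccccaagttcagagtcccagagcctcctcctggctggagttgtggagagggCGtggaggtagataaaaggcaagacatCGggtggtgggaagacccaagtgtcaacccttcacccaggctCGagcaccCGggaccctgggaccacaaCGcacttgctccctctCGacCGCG
Pdk2, chr11:95041322-95041621, minus strand: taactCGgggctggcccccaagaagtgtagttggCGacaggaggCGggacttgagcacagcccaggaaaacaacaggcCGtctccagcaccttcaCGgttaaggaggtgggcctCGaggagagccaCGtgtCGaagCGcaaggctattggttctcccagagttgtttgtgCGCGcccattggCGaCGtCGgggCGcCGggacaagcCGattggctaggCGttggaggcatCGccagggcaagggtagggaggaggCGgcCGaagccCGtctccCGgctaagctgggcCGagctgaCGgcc
The Pdk4 window holds 12 CG dinucleotides and the Pdk2 window 25, against a median of 7 over the 32851 windows of the same length in the RefSeq table. The Pdk1 window has 25 as well, and the Pdk3 window has 35. Among 9 of the 10 genes with a window, 4 motifs were searched on both strands: the E-box CACGTG, the nuclear receptor half-site AGGTCA, the forkhead core GTAAACA and the TATA box TATAAA. The E-box occurred in the Pdk2 window, starting 126 bases before the start site (position -126), and in the Pdp2 window at position -219. It occurs in 7.15% of all windows. None of the 4 motifs occurred in the Pdk4 window; the half-site, the forkhead core and the TATA box occur in 16.3%, 3.65% and 13.6% of all windows. A match in these letters is not a binding site. Only exact matches were counted, so inexact forms of the motifs and elements outside the windows were not searched.

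Among the 10 genes, Pdk4 was the one called different between the groups. It fell to a level 2.60-fold lower in PG hearts than in GC hearts, while its paralogs Pdk1, Pdk2 and Pdk3, the E1 subunits, the phosphatases and the carriers had log2 fold changes between -0.18 and 0.20 and were not called. A gene was called at an adjusted p under 0.05 in edgeR's quasi-likelihood test, with Benjamini-Hochberg adjustment over 12258 tested genes. Of those, 462 genes were called, or 3.77%, with 191 higher in PG (1.56%) and 271 lower (2.21%). All 10 genes passed the filter on low counts. Their median log2 fold change was -0.022, against 0.00067 over all tested genes, and 5 of the 10 fold changes were positive. CPM values of the groups did not overlap for 7 of the 10, 4 of them higher in PG and 3 lower, where 20.6% of all tested genes did not overlap (9.97% higher in PG and 10.6% lower). The 7 include Mpc1 and Mpc2, whose groups overlapped in exon-exon reads.

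Pdk4 (ENSMUSG00000019577, chr6:5483351-5496309 on the minus strand, GRCm38), the kinase that responds to fasting, had 341, 297 and 232 CPM in PG1, PG2 and PG3, against 716, 758 and 786 CPM in GC1, GC2 and GC3. Every PG library was below every GC library, and the highest PG value was less than any GC value by more than the whole range of either group. The means were 290 ± 54.5 CPM in PG hearts and 753 ± 35.2 CPM in GC hearts (SD, n = 3 each). The log2 fold change was -1.38 (SE 0.14, 95% confidence interval -1.74 to -1.01, edgeR adjusted p = 0.0089). The gene's own spread between libraries was wide for its level, so that the robust fit gave it 5.36 degrees of freedom, and 202 genes had a smaller p. Among called genes, 21, Pdk4 counted (0.171% of those tested), were lower in PG by at least this fold. Falls as large that were not called are outside this count, such as Angptl4 (log2 fold change -1.48, edgeR adjusted p = 0.39). Leaving out PG2 ended the call of Pdk4 (log2 fold change -1.39, edgeR adjusted p = 0.075). So did grouping GC3 with PG as the header has it (-0.83, edgeR adjusted p = 0.74). With GC3 so grouped, the authors' deposited table gives Pdk4 a signed fold change of -1.78 with an adjusted p of 1.87e-04, and an adjusted p of 1.00 for each of the other 9 genes. In whole hearts, fewer cells of a type and less RNA per cell cannot be told apart.

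Pdk2 (ENSMUSG00000038967, chr11:95026258-95041354, minus strand), a kinase expressed in most tissues, had 399, 412 and 362 CPM in PG1, PG2 and PG3, against 343, 346 and 349 CPM in GC1, GC2 and GC3. The groups did not overlap, with PG higher, but the difference missed the threshold (log2 fold change 0.18, SE 0.056, 95% confidence interval 0.062 to 0.29, edgeR adjusted p = 0.083). It passed when library totals replaced the TMM scaling (0.22, edgeR adjusted p = 0.022), with no filter on low counts (0.18, edgeR adjusted p = 0.032) and without PG3 (0.23, edgeR adjusted p = 0.011).

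Pdk1 (ENSMUSG00000006494, chr2:71873224-71903858, plus strand), the kinase known as a target of hypoxia-inducible factor, had 264, 249 and 245 CPM in the PG libraries, against 231, 228 and 233 CPM in the GC libraries. These groups also did not overlap, and the difference was not called (log2 fold change 0.13, SE 0.054, 95% confidence interval 0.017 to 0.24, edgeR adjusted p = 0.24). Pdk3 (ENSMUSG00000035232, chrX:93764607-93832201, minus strand), better known from testis and brain, was near the limit of detection, at 5.21, 3.11 and 4.20 CPM in PG libraries and 3.60, 4.94 and 4.83 CPM in GC libraries, from 22 to 42 counts. Its groups overlapped, and its interval on the log2 scale, from -0.59 to 0.41 (edgeR adjusted p = 0.91), leaves room for changes that this depth could not show.

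**Figure D1:**
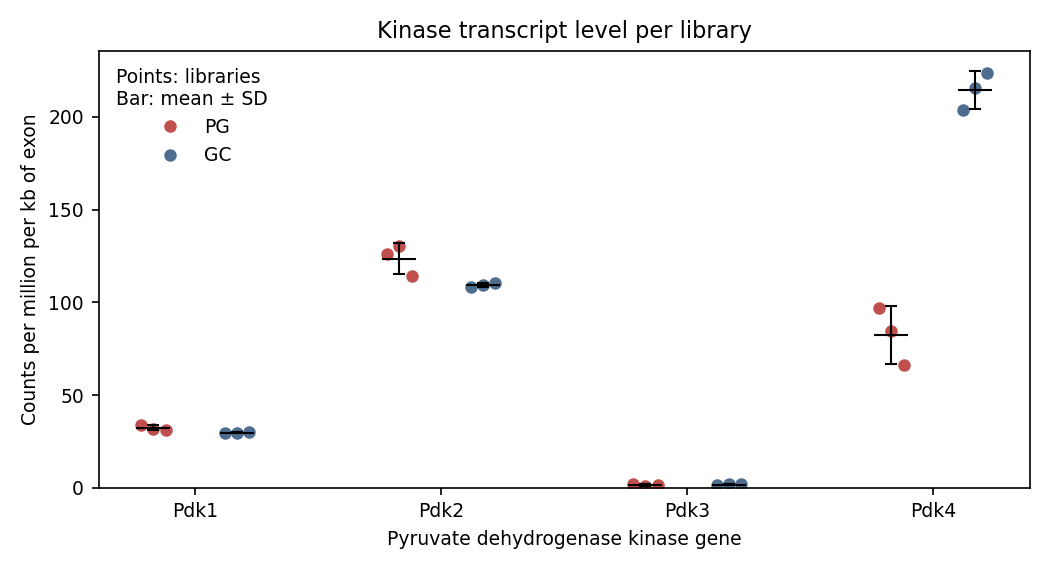
Transcript level of the 4 pyruvate dehydrogenase kinases in CPM per kb of exon (y axis), with PG libraries to the left of GC libraries for each gene on the x axis; points are libraries and bars are mean ± SD (n = 3 each). Pdk4 stands at 66.1 to 97.0 in PG and 204 to 224 in GC, while Pdk2 stands at 114 to 130 in PG and 108 to 110 in GC.

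Dividing by exon length lets the kinases be set against each other, as far as the annotation allows. The length is that of all annotated exons together, 7779 bases for Pdk1, 3163 for Pdk2 and 3511 for Pdk4. It may differ from the length of the transcript expressed, so the levels per kb and the shares depend on it. In PG hearts Pdk2 was the most abundant kinase transcript, at 124 ± 8.29 CPM per kb, followed by Pdk4 at 82.6 ± 15.5, Pdk1 at 32.4 ± 1.29 and Pdk3 at 1.63 ± 0.41 CPM per kb (SD, n = 3). In GC hearts Pdk4 led at 214 ± 10.03 CPM per kb, ahead of Pdk2 at 109 ± 0.91, Pdk1 at 29.7 ± 0.31 and Pdk3 at 1.74 ± 0.29 CPM per kb (SD, n = 3). The order of Pdk4 and Pdk2 was the reverse in every PG library of that in every GC library, and no neighbours in either order overlapped between libraries of 1 group.

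As a share of the summed kinase transcripts per length, Pdk4 made up 37.4, 34.1 and 31.0% in PG1, PG2 and PG3, against 59.4, 60.6 and 61.2% in GC1, GC2 and GC3. The shares did not overlap and differed by -26.2 percentage points, at an exact two-sided permutation p of 0.10, the smallest that 3 against 3 libraries allow. Pdk2 took 51.6 ± 2.56% of the kinase pool in PG hearts and 30.8 ± 0.72% in GC hearts (SD, n = 3 each). Pdk1 took 13.6 ± 1.01% in PG hearts and 8.35 ± 0.27% in GC hearts (SD, n = 3 each). The summed level of all 4 kinases was 240 ± 23.7 CPM per kb in PG hearts and 355 ± 11.2 CPM per kb in GC hearts. Without Pdk4, Pdk1, Pdk2 and Pdk3 together came to 158 ± 8.91 in PG hearts and 141 ± 1.24 CPM per kb in GC hearts. Shares of 1 pool are bound to each other, so a lower Pdk4 level by itself makes the shares of Pdk2 and Pdk1 larger.

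**Figure D2:**
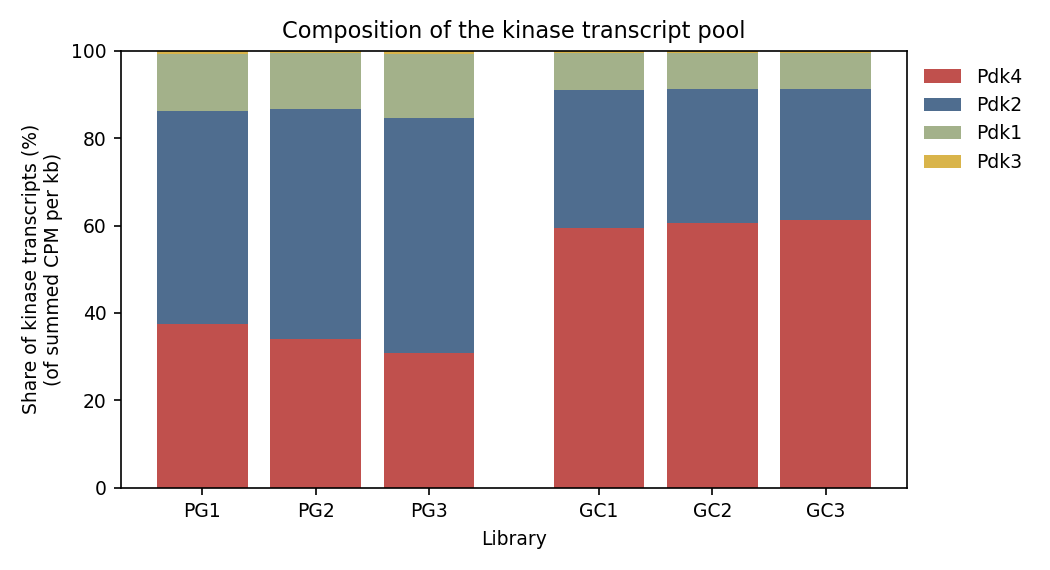
Share of each kinase in the summed kinase transcripts (y axis, percent of CPM per kb) in every library (x axis, PG left of GC). Pdk4 takes 31.0 to 37.4% of each PG bar and 59.4 to 61.2% of each GC bar, and Pdk2 takes 48.7 to 53.6% in PG and 30.1 to 31.6% in GC.

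The contrast of Pdk4 with each paralog was tested as a ratio within each library, which no scaling can change. Per length, Pdk4 over Pdk2 was 0.77, 0.65 and 0.58 in PG1, PG2 and PG3, against 1.88, 1.97 and 2.03 in GC1, GC2 and GC3. Every PG ratio was thus under 1 and every GC ratio above it. On the log2 scale the difference of this ratio, PG minus GC, was -1.57 (SE 0.12), the ratio over Pdk1 differed by -1.52 (SE 0.14), that over Pdk3 by -1.28 (SE 0.25) and that over the sum of the 3 paralogs by -1.56 (SE 0.12). None of the 4 ratios overlapped between groups, and each had an exact two-sided permutation p of 0.10, also after adjustment over the 4, which is the smallest this design can give. They share the Pdk4 values and are not 4 separate findings. Under the header's grouping of GC3, added after the values were seen, the differences were -1.14, -1.10, -1.01 and -1.13 (exact permutation p from 0.27 to 0.40), and the kinase share of Pdk4 differed by -19.1 percentage points.

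The phosphatases, which oppose the kinases, were expressed at low levels. Pdp1 (ENSMUSG00000049225, chr4:11958184-11966452, minus strand), the calcium-stimulated isoform, had 50.5, 50.9 and 56.0 CPM in PG libraries, against 40.2, 47.2 and 49.5 CPM in GC libraries. Pdp2 (ENSMUSG00000048371, chr8:104591451-104599026, plus strand) had 61.9, 51.3 and 53.5 CPM in PG libraries, against 56.4, 67.5 and 65.6 CPM in GC libraries. The estimates had opposite signs, with log2 fold changes of 0.20 for Pdp1 (SE 0.086, edgeR adjusted p = 0.25) and -0.18 for Pdp2 (SE 0.085, edgeR adjusted p = 0.29). Neither was called, and the groups overlapped for Pdp2 only. Set against the phosphatases, the summed kinase transcripts per length were 11.7, 12.2 and 9.77 times as abundant in PG1, PG2 and PG3, and 18.2, 15.9 and 16.2 times in GC1, GC2 and GC3, a log2 difference of -0.58 (SE 0.12, exact two-sided permutation p = 0.10, the smallest possible). This last ratio was chosen after the values had been seen, and its kinase sum holds the Pdk4 values. Without Pdk4 the summed kinases stood at 158 ± 8.91 CPM per kb in PG hearts and 141 ± 1.24 CPM per kb in GC hearts (SD, n = 3 each).

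The 2 subunits of E1, the component that decarboxylates pyruvate and carries the sites the kinases phosphorylate, were the most abundant of the 10 per length. Pdha1 (ENSMUSG00000031299, chrX:160122209-160138413, minus strand), the alpha subunit, had 802, 839 and 880 CPM in PG libraries and 846, 808 and 799 CPM in GC libraries, and the groups overlapped (log2 fold change 0.039, 95% confidence interval -0.069 to 0.15, edgeR adjusted p = 0.80). Pdhb (ENSMUSG00000021748, chr14:8165991-8172992, minus strand), the beta subunit, had 394, 433 and 424 CPM in PG libraries and 493, 452 and 466 CPM in GC libraries. Pdhb was lower in each PG library than in each GC library, though not called (log2 fold change -0.17, 95% confidence interval -0.29 to -0.058, edgeR adjusted p = 0.088). Over the 6 libraries, 66.9% of the exon reads of Pdha1 and 82.5% of those of Pdhb were uniquely mapped. The expression value holds unique exon reads and, of the shared ones, only those across junctions, so the level of Pdha1 in particular leaves out most of its shared reads. Map3k15 overlaps 603 of the 3734 exon bases of Pdha1 on the other strand, but it had at most 18 counts itself in any library.

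The carrier subunits had small differences of opposite sign. Mpc1 (ENSMUSG00000023861, chr17:8282904-8297661, plus strand) had 131, 135 and 137 CPM in PG libraries, against 130, 116 and 116 CPM in GC libraries. Mpc2 (ENSMUSG00000026568, chr1:165460637-165481214, plus strand) had 206, 229 and 226 CPM in PG libraries, against 236, 231 and 234 CPM in GC libraries. For neither did the groups overlap in these values, with Mpc1 higher in PG (log2 fold change 0.15, 95% confidence interval 0.023 to 0.28, edgeR adjusted p = 0.22) and Mpc2 lower (-0.083, 95% confidence interval -0.20 to 0.034, edgeR adjusted p = 0.54). In exon-exon reads and on all exon reads the groups overlapped for both genes. Only 13.97% of the exon reads of Mpc1 over the 6 libraries were unique, and its estimate was 0.29 on unique exon reads (edgeR adjusted p = 0.051) and 0.091 on all exon reads (edgeR adjusted p = 0.46), so its size depends on how shared reads are counted.

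Per length, the order of the 10 genes in PG hearts was Pdhb (281 CPM per kb), Pdha1 (225), Pdk2 (124), Pdk4 (82.6), Mpc1 (64.5), Mpc2 (57.9), Pdk1 (32.4), Pdp1 (11.6), Pdp2 (9.77) and Pdk3 (1.63), and no neighbours overlapped between PG libraries. In GC hearts it was Pdhb (317), Pdha1 (219), Pdk4 (214), Pdk2 (109), Mpc2 (61.3), Mpc1 (58.1), Pdk1 (29.7), Pdp2 (11.1), Pdp1 (10.1) and Pdk3 (1.74). There Pdha1 and Pdk4, Mpc2 and Mpc1, and Pdp2 and Pdp1 overlapped. These levels leave out shared reads that do not cross junctions, which bears on Pdha1, Pdhb and Mpc1. On all exon reads, multi-mapped ones included, Pdha1 stood at 270 ± 9.04 in PG hearts and 256 ± 8.66 in GC hearts, in reads per 1000000 exon reads and kb of exon (SD, n = 3 each). On that scale Pdk4 stood at 66.6 ± 13.9 in PG hearts and 167 ± 6.54 in GC hearts, so it was below Pdha1 in GC hearts too. Mpc1 stood at 146 ± 7.81 in PG hearts and 133 ± 6.34 in GC hearts, above Pdk2 in both groups, which stood at 99.6 ± 7.51 in PG hearts and 85.1 ± 0.056 in GC hearts. The place of Pdk4 below Pdk2 in PG hearts and above it in GC hearts was the same on both scales.

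**Figure D3:**
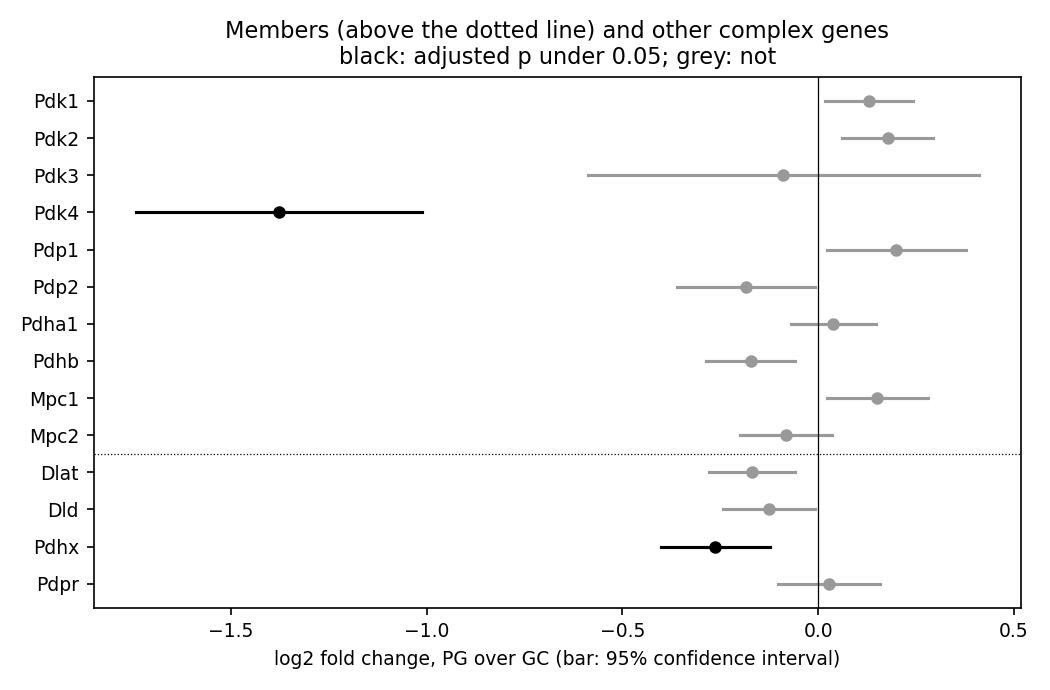
Log2 fold change, PG over GC (x axis), with 95% confidence intervals as bars, for the 10 genes above the dotted line and 4 further genes of the complex below it (y axis); black marks an adjusted p under 0.05. Pdk4 stands at -1.38, while the other 9 lie between -0.18 and 0.20; of the lower 4, Pdhx is black.

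Of the other genes of the complex, 1 was called, lower in PG. Over all tested genes, 3.77% were called and 2.21% were called lower. Pdhx, the E3-binding protein that anchors dihydrolipoamide dehydrogenase, had 106, 110 and 125 CPM in PG libraries, against 144, 131 and 135 CPM in GC libraries, with a log2 fold change of -0.26 (SE 0.067, edgeR adjusted p = 0.025). It was the gene called among the 4 tested in this list, whose median log2 fold change was -0.15. That call was lost on leaving out PG1, PG2, GC1, GC2 or GC3 in turn (edgeR adjusted p from 0.051 to 0.15) and with library totals (edgeR adjusted p = 0.070). Dlat, the E2 acetyltransferase, averaged 411 ± 16.8 CPM in PG hearts and 462 ± 10.9 CPM in GC hearts (SD, n = 3 each). Dld, the E3 enzyme shared with other complexes, averaged 385 ± 26.5 CPM in PG hearts and 420 ± 14.8 CPM in GC hearts (SD, n = 3 each). Neither was called (edgeR adjusted p = 0.080 for Dlat and 0.28 for Dld), though Dlat was without PG3 (edgeR adjusted p = 0.041). Pdpr, the regulatory subunit of the phosphatase, had a log2 fold change of 0.027 (SE 0.063, edgeR adjusted p = 0.89). Pdha2, the testis isoform of the alpha subunit, was listed at 0 throughout.

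Reads across splice junctions and reads in introns gave further views of the same libraries. In exon-exon reads Pdk4 had 300, 268 and 185 CPM in PG libraries, against 595, 622 and 667 CPM in GC libraries, with no overlap and a log2 fold change of -1.33 (SE 0.18, edgeR adjusted p = 0.036). It was the 1 gene called of the 7 of the 10 that could be tested there, where 2.3% of 8956 genes were called. This call was lost when PG2, GC1, GC2 or GC3 was left out (edgeR adjusted p from 0.078 to 0.17), while the log2 fold change without any 1 library stayed between -1.48 and -1.14.

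In unique intron reads Pdk4 had 36.2, 61.0 and 87.9 CPM in PG1, PG2 and PG3, against 78.7, 180 and 63.0 CPM in GC1, GC2 and GC3. The groups overlapped, with PG3 above GC1 and GC3, and GC2 stood apart at 898 counts. The log2 fold change of -0.81 had an SE of 0.58 and a 95% confidence interval from -2.38 to 0.76 (edgeR adjusted p = 0.65), and it was -0.20 without GC2. The interval holds both no change and the fall seen in exons. Within the PG libraries the intron order was the opposite of the exon order: PG1 had the highest exon level and the lowest intron level, and PG3 the reverse. Intron reads made up 6.79, 11.7 and 18.8% of the unique Pdk4 reads in the PG libraries and 7.26, 14.3 and 5.58% in the GC libraries. The log2 ratio of intron to exon reads, a measure added after the values were seen, did not separate the groups (difference 0.51, SE 0.66, exact two-sided permutation p = 0.60). Over all genes, introns held 38.1 to 40.6% of the unique gene reads in PG libraries and 41.8 to 43.5% in GC libraries, without overlap; the part of this in the Pdk4 values was not tested.

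None of the 9 genes of this set with enough intron reads was called in edgeR, where 2.86% of 11968 genes were, nor in DESeq2, which gave 3 of them no adjusted p. By edgeR, Pdk1 was the 1 gene with an unadjusted p under 0.05. Pdk1 had 18.1, 16.6 and 15.7 intron CPM in PG libraries, against 12.97, 13.5 and 12.5 in GC libraries (log2 fold change 0.37, SE 0.15, edgeR adjusted p = 0.25). Scaling matters more for intron reads than for exon reads: the median log2 fold change of all genes was 0.0070 with the intron reads' own TMM factors, -0.14 with the factors and totals of the expression counts and 0.11 with intron totals alone. Pdk4 intron estimates under the other two scalings were -0.96 and -0.72.

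**Figure D4:**
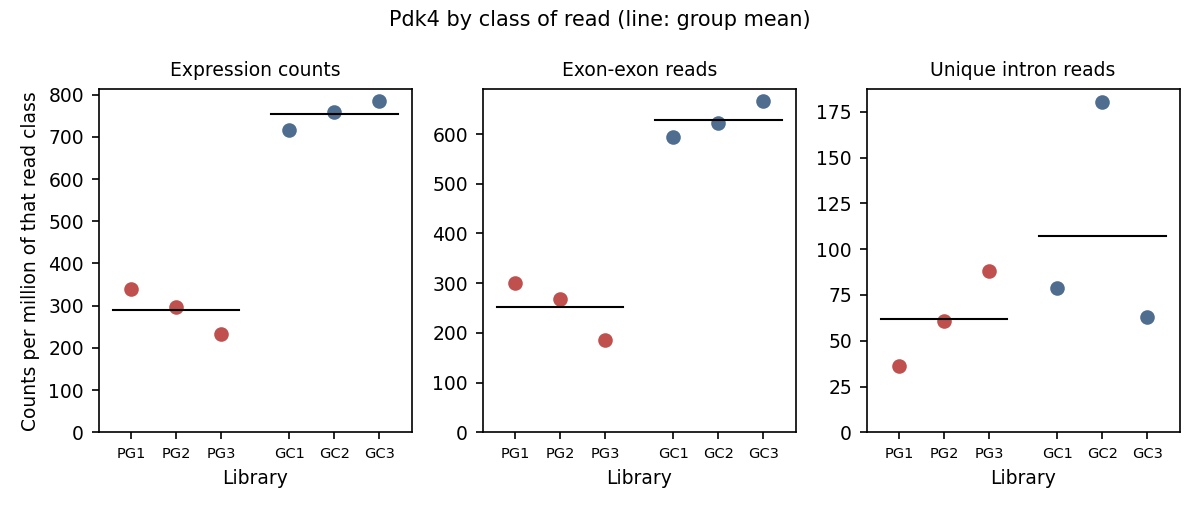
Pdk4 in CPM of each read class (y axis of each panel, starting at 0) for every library (x axis, PG left of GC); the line is the group mean. Expression counts and exon-exon reads separate PG from GC without overlap, while in intron reads PG spans 36.2 to 87.9 and GC 63.0 to 180.

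PPAR and FoxO factors are known to act on Pdk4, and 21 other known targets of these factors were tested. Of these 21, 3 were called, each lower in PG (2.21% of all tested genes were lower), with a median log2 fold change of -0.011. Plin5, a lipid droplet coat protein of oxidative tissue, had 62.4, 67.7 and 77.6 CPM in PG libraries, against 106, 96.0 and 116 CPM in GC libraries (log2 fold change -0.62, SE 0.083, edgeR adjusted p = 1.55e-04), and -0.32 under the header's grouping. Plin2, another droplet coat protein, fell by 0.38 on the log2 scale (SE 0.079, edgeR adjusted p = 0.0051) and Ehhadh, a peroxisomal fatty acid oxidation enzyme, by 0.58 (SE 0.14, edgeR adjusted p = 0.015; -0.22 under the header's grouping). Plin2 lost its call without PG2 or GC2 (edgeR adjusted p = 0.054 and 0.059), and Ehhadh without PG2, PG3, GC2 or GC3 (edgeR adjusted p from 0.051 to 0.098).

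Cpt1b, the muscle form of the enzyme that admits fatty acids to mitochondria, averaged 301 ± 4.62 CPM in PG hearts and 303 ± 7.62 CPM in GC hearts (SD, n = 3 each; edgeR adjusted p = 0.96). Ucp3, Angptl4 and Txnip, singled out after their values were seen, were spread widely over GC libraries but not over PG libraries. Angptl4 had 4.34, 5.23 and 6.12 CPM in PG libraries and 4.54, 20.6 and 18.3 CPM in GC libraries. Ucp3 had 21.2, 21.2 and 26.2 CPM in PG and 23.2, 41.0 and 61.2 CPM in GC. Txnip had 163, 148 and 147 CPM in PG and 107, 303 and 249 CPM in GC. GC1 was within or below the PG range for all 3 genes, whereas Pdk4 in that library, at 716 CPM, was close to the other GC values. None of the 3 was called (edgeR adjusted p = 0.39 for Angptl4, 0.44 for Ucp3 and 0.67 for Txnip).

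Of 18 tested regulators known to act on Pdk4, 1 was called higher and 2 lower in PG (1.56% and 2.21% of all tested genes), with a median log2 fold change of -0.073. Arntl, the clock activator also called Bmal1, had 21.0, 18.5 and 20.9 CPM in PG libraries, against 49.0, 46.3 and 28.9 CPM in GC libraries (log2 fold change -1.03, SE 0.19, edgeR adjusted p = 0.023). Its call was lost without PG1, PG2, PG3 or GC2 (edgeR adjusted p from 0.057 to 0.19), and with limma voom (adjusted p = 0.075). Its partner Clock fell by 0.28 on the log2 scale (SE 0.071, edgeR adjusted p = 0.024; lost without PG1, PG2, GC1 or GC2, 0.10 to 0.20, and with library totals, 0.062). Hif1a, the oxygen-regulated factor, was higher by 0.30 (SE 0.081, edgeR adjusted p = 0.040; lost without any library other than GC3, 0.076 to 0.23). It was also lost for Hif1a with DESeq2 (adjusted p = 0.084), with edgeR without robust fitting (adjusted p = 0.056) and on all exon reads (edgeR adjusted p = 0.13). Ppara, the fatty acid receptor, averaged 62.6 ± 2.02 CPM in PG hearts and 67.0 ± 11.1 CPM in GC hearts (SD, n = 3 each). Foxo1 averaged 50.2 ± 6.69 CPM in PG hearts and 51.4 ± 2.55 CPM in GC hearts (SD, n = 3 each). The glucocorticoid receptor Nr3c1 averaged 170 ± 5.62 CPM in PG hearts and 152 ± 6.83 CPM in GC hearts (SD, n = 3 each). The coactivator Ppargc1a averaged 159 ± 6.28 CPM in PG hearts and 173 ± 5.41 CPM in GC hearts (SD, n = 3 each). These 4 transcripts were not called (edgeR adjusted p = 0.71, 0.91, 0.15 and 0.31 in that order). The times of day at which hearts were taken are not in the labels, and the part of the clock transcripts in the Pdk4 values was not tested.

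**Figure D5:**
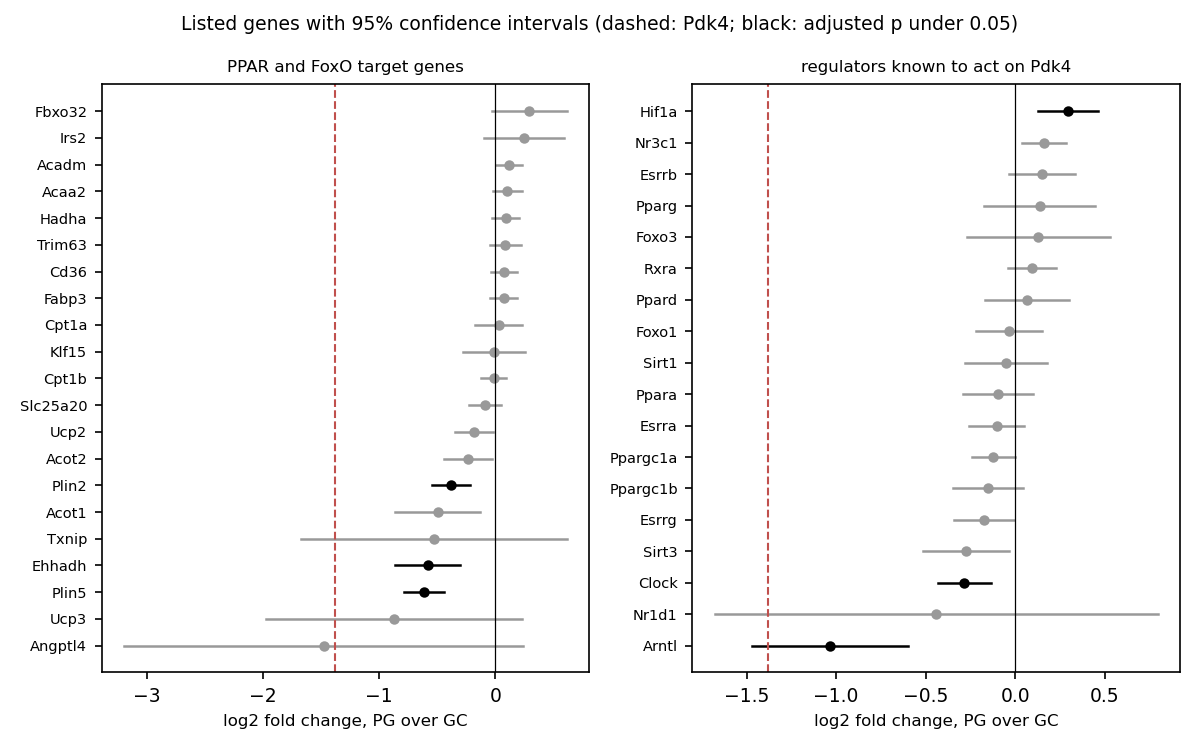
Log2 fold change, PG over GC (x axes), with 95% confidence intervals as bars, for 21 PPAR and FoxO target genes (left) and 18 regulators known to act on Pdk4 (right); black marks an adjusted p under 0.05 and the dashed line is Pdk4 at -1.38. Plin5 stands at -0.62 and Arntl at -1.03, while 9 of the 21 targets and 7 of the 18 regulators are above 0.

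Around the complex, called genes had fold changes smaller than that of Pdk4. Of 15 tested genes for pyruvate and lactate handling, 2 were called, both lower, where 3.77% of all tested genes were called and 2.21% were lower (median log2 fold change -0.043). Pkm, which makes pyruvate at the end of glycolysis, averaged 799 ± 20.3 CPM in PG hearts and 945 ± 25.1 CPM in GC hearts (log2 fold change -0.24, edgeR adjusted p = 0.0051; 0.086 without GC2; SD, n = 3 each). Gpt2, which interconverts pyruvate and alanine in mitochondria, averaged 38.9 ± 1.23 CPM in PG hearts and 47.8 ± 2.32 CPM in GC hearts (SD, n = 3 each; log2 fold change -0.30, edgeR adjusted p = 0.036). The call of Gpt2 was lost without any 1 of the 6 libraries (edgeR adjusted p from 0.055 to 0.23), with library totals (edgeR adjusted p = 0.093) and with DESeq2 (adjusted p = 0.11). Lactate dehydrogenase subunits were not called. Ldha averaged 401 ± 28.3 CPM in PG hearts and 440 ± 11.6 CPM in GC hearts, and Ldhb averaged 1152 ± 32.7 CPM in PG hearts and 1128 ± 15.3 CPM in GC hearts (SD, n = 3 each; edgeR adjusted p = 0.24 and 0.84).

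Of 16 citric acid cycle genes 1 was called higher and 1 lower in PG (1.56% and 2.21% of all tested genes; median log2 fold change -0.035). Dlst, the E2 subunit of the 2-oxoglutarate dehydrogenase complex, averaged 547 ± 23.0 CPM in PG hearts and 660 ± 11.1 CPM in GC hearts (log2 fold change -0.27, edgeR adjusted p = 0.0025). Idh3g, a subunit of NAD-dependent isocitrate dehydrogenase, was higher by 0.20 on the log2 scale (edgeR adjusted p = 0.028), a call lost on leaving out PG2, PG3, GC1, GC2 or GC3 (edgeR adjusted p from 0.064 to 0.13). Among 9 genes of the related oxo acid dehydrogenase complexes, which are built like the pyruvate complex, 2 were called higher and 1 lower. Their median was -0.034, and the same 1.56% and 2.21% of all genes apply. Bckdha, the E1 alpha subunit of the branched-chain complex, averaged 169 ± 12.4 CPM in PG hearts and 123 ± 6.19 CPM in GC hearts (log2 fold change 0.45, SE 0.065, edgeR adjusted p = 1.41e-04). Ogdhl, a paralog of the 2-oxoglutarate dehydrogenase E1, averaged 211 ± 12.7 CPM in PG hearts and 163 ± 4.66 CPM in GC hearts (log2 fold change 0.37, SE 0.059, edgeR adjusted p = 4.12e-04). The lower gene was Dlst again. Bckdha is the counterpart of Pdha1 in that complex, and Pdha1 itself had a log2 fold change of 0.039.

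No tested cell type marker had a fold change as large as that of Pdk4. Of 8 cardiomyocyte markers, 1 was called higher and 2 lower in PG, and their median log2 fold change was -0.017. Over all tested genes 1.56% were called higher and 2.21% lower, which applies to the cell type lists below as well. The higher marker was Pln, at 0.30 on the log2 scale (edgeR adjusted p = 0.0018). The lower ones were Myh6 at -0.35 (edgeR adjusted p = 3.74e-04) and Ryr2 at -0.35 (edgeR adjusted p = 2.91e-04). Under the header's grouping Myh6 and Ryr2 were at -0.23 and -0.21. Fibroblast markers summed to 999.7 to 1089 CPM in PG libraries and 1081 to 1098 CPM in GC libraries, with 2 of 6 called, both lower (Col1a1 and Col1a2; lost without PG2, GC1 or GC2, edgeR adjusted p from 0.053 to 0.11). Smooth muscle and pericyte markers summed to 1260 to 1394 CPM in PG and 1143 to 1175 CPM in GC. Of these 6, 2 were called higher (Rgs5 and Tagln) and 1 lower (Acta2, log2 fold change -0.33, edgeR adjusted p = 0.031). Rgs5 lost its call without GC2 (edgeR adjusted p = 0.093) and Tagln without PG3 or GC1 (edgeR adjusted p = 0.069 and 0.058). No endothelial (6 tested; sums of 1272 to 1418 CPM in PG and 1407 to 1451 CPM in GC), macrophage (6 tested; 176 to 210 CPM in PG and 202 to 212 CPM in GC) or red cell marker (5 tested; 586 to 986 CPM in PG and 599.8 to 872 CPM in GC) was called by edgeR, with 2, 1 and 0 genes at an unadjusted p under 0.05. Of 5 atrial markers 1 was called, Sln, higher in PG, although the median over these 5 was -0.27 on the log2 scale. They summed to 1380 to 1589 CPM in PG libraries and 1526 to 1688 CPM in GC libraries. Myl7 (log2 fold change -0.33), Myl4 (-0.27) and Bmp10 (-0.45) were each below GC in all PG libraries but not called (edgeR adjusted p = 0.19, 0.15 and 0.26). Adipocyte markers, of interest because fat also expresses Pdk4, summed to 2.76 to 3.82 CPM in PG libraries and 1.46 to 2.51 CPM in GC libraries, with none tested and Ucp1 listed at 0. Lymphocyte markers summed to 1.12 to 2.76 CPM in PG libraries and 0.63 to 3.38 CPM in GC libraries, and of the skeletal muscle markers only Ckm, also a heart gene, was tested. The part of cell composition in the Pdk4 values was not tested.

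Likeness to Pdk4 was measured by the root mean square difference of centred log2 CPM over the 6 libraries. The 9851 genes compared had a mean of at least 5 CPM, with predicted genes, Riken names and clone identifiers left out. Of these, the 5 most like Pdk4 were Cdkn1a (0.26), Sstr3 (0.29), Hist1h1d (0.31), Apln (0.32) and Acta1 (0.32). Cdkn1a, the cell cycle inhibitor p21, averaged 25.4 ± 1.89 CPM in PG hearts and 70.8 ± 18.2 CPM in GC hearts (SD, n = 3 each; log2 fold change -1.47). Acta1, the skeletal alpha actin, averaged 56.6 ± 11.2 CPM in PG hearts and 111 ± 8.54 CPM in GC hearts (SD, n = 3 each; log2 fold change -0.96). Apln encodes the secreted peptide apelin (log2 fold change -1.10), Sstr3 a somatostatin receptor (-1.39) and Hist1h1d a linker histone (-0.93; -0.35 under the header's grouping). All 5 were called, Cdkn1a only with all PG libraries in (edgeR adjusted p from 0.067 to 0.11 without 1 of them) and Hist1h1d not without PG3, GC2 or GC3 (edgeR adjusted p from 0.063 to 0.12). No other member of the set was among them: the nearest, Pdp2 and Pdhb, ranked 815 and 1329, and Pdk2 ranked 8156. Pdk3, with a mean under 5 CPM, was not compared. With 6 libraries in 2 groups, this likeness mostly restates the difference between the groups.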

How the data were processed

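RNA from 6 heart libraries (3 PG, 3 GC) was extracted with ISOGEN II, depleted of ribosomal RNA from about 500 ng and sequenced on a NextSeq 500, per the labels. The deposited table holds whole-number read counts per gene, made by the authors; its expression value equals unique exon reads plus multi-mapped exon-exon reads in all 49585 genes. The submitters' processing notes name the genome build as GRCm38 or mm10. Which aligner, annotation release and strand setting were used is not given in the sources used here. Without strand, antisense reads cannot be told from sense reads. The authors' test columns give a signed fold change as a score and a p-value with its FDR, per the file headers. Table starts count from 0 and are given here plus 1, which equals the GENCODE M21 start in 46269 of 49326 matched genes.

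Counts were tested with edgeR 4.0.16 (filterByExpr, minimum count 10, TMM scaling, robust quasi-likelihood fit; R 4.3.3), and called at a Benjamini-Hochberg adjusted p under 0.05; limma 3.58.1 voom and DESeq2 1.42.0 were alternatives. The standard error is the log2 fold change over the square root of F, and intervals use the t distribution on the fitted degrees of freedom. Intron and exon-exon reads were fitted separately. CPM are counts per 1000000 of the TMM-scaled total; CPM per kb divides by union exon length. Ratios add 0.5 to each count and were tested by exact permutation of the libraries (Python 3.11.15, scipy 1.17.1). Common biological variation was 6.20%. On data simulated for PG against GC over 12154 genes, edgeR recovered 36%, 66%, 94% and 100% of genes changed by 1.3-, 1.5-, 2- and 4-fold, with 7.5% of its calls false. Chi-square per gene between replicate libraries was 2.16 to 6.26, so none are copies.

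The members and gene lists were chosen with earlier results of these data known, as were the promoter motifs. Named genes are the members, other complex genes, up to 4 called genes of each function list, up to 2 called markers of each cell type, and the 5 most like Pdk4; others named were chosen after their values were seen. One gene of the PPAR and FoxO list is not reported here and is left out of that list's counts and median. Alternatives covered scaling, filter, test, read class, a replicate block, the header's grouping of GC3 and leaving out each library.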

Additional observations from a re-analysis of the deposited data

How the results depend on the processing

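Pdk4 kept its direction under all 20 alternatives and its call under 18, with log2 fold changes from -1.51 to -0.83; the call was lost without PG2 (-1.39) and with GC3 grouped as in the deposited header (-0.83), and leave-one-out values ran from -1.51 to -1.24. The number of the 10 genes called was 1, rising to 2 with library totals and with no filter, falling to 0 under the header's grouping, and 0 to 2 on leaving out single libraries. The count over all genes was 462, against 765 with no filter, 296 with DESeq2, 286 with DESeq2 without independent filtering (an alternative added after seeing the data), 32 under the header's grouping and 219 (without GC2) to 463 without 1 library; it was 232 without PG2. The cause of these shifts was not tested. Library totals gave 288 higher and 193 lower calls, against 191 higher and 271 lower with TMM. In exon-exon reads Pdk4 ran from -1.48 to -1.14 on leaving out single libraries. Its intron estimate kept its sign in all 12 alternatives, from -1.16 to -0.20, and was not called in any. The 4 kinase ratios, the kinase share and the kinase over phosphatase ratio kept their direction in all 10 alternatives. Under the header's grouping, added after seeing the data, Pdk4 over Pdk2 moved to -1.14, over Pdk1 to -1.10 and over the 3 summed to -1.13, the share to -19.1 points, and the intron over exon ratio turned from 0.51 to -0.091, with neither value past a test. DESeq2 without independent filtering also ended the calls of Pdhx, Gpt2, Ehhadh, Clock, Hif1a, Tagln and Hist1h1d (adjusted p from 0.060 to 0.18).

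Same-numbered PG and GC libraries did not deviate together (correlations 0.0026, -0.054 and 0.048). A fit with the replicate number as a block called 545 genes, among them 1 of the 10, with Pdk4 at -1.39. The depth limits Pdk3 most, at 22 to 42 counts per library. Only 36% of changes simulated at 1.3-fold were recovered, all in genes with a mean above 5 CPM. Pdk3 averaged 4.17 CPM in PG hearts and 4.46 CPM in GC hearts, so the simulation does not cover its level. With 3 libraries a group, no permutation test could pass 0.05.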
